A study of Mus musculus with 36 samples.

Results

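The genes described here are 10 genes that white adipocytes are known for: Adipoq, Plin1, Plin4, Cidec, Fabp4, Retn, Lep, Car3, Cfd and Pparg. They were selected on measured values, because the 3 libraries from infarcted ventricles at 8 weeks had been seen to differ in adipocyte markers, and were then taken by gene symbol from a table of 16415 genes. A row was found for 9 of the 10, and Lep, the gene of the satiety hormone leptin, was not analysed here. The values are FPKM, which corrects the reads of a gene for its length and for the size of the library.

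White adipocytes store triglyceride in a single large droplet. Perilipin 1 coats that droplet, Cidec enlarges it by lipid transfer between droplets, and Fabp4 carries fatty acids inside the cell. The nuclear receptor Pparg, with C/EBP factors, switches on this set of genes during adipocyte formation, and the mature cell secretes adiponectin, resistin, leptin and complement factor D. The heart carries such cells mainly in the fat on its surface, whereas Fabp4 is also made by capillary endothelium and macrophages, and Plin4 is also found in heart and skeletal muscle.

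All 6 groups were left ventricles of C57BL/6 mice, males of 8 weeks of age at surgery by the study's methods. Myocardial infarction (MI) was made by ligation of the left anterior descending coronary artery, with sham surgery as the control, and ventricles were taken at 1 day, 1 week or 8 weeks. Each group had 3 mRNA libraries, 18 in all, made from pooled ventricles. The labels do not give the number of animals in a library, so the p-values below measure only the spread between these libraries. In such whole tissue, fewer cells of a type and less RNA per cell cannot be told apart.

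The library depths are unknown, because no read counts were used. Between 10371 and 12561 of the 16415 genes reached 1 FPKM in a library. The ventricle label was checked in the sham libraries, where 10 cardiomyocyte genes summed to between 32361 and 39104 FPKM. In MI libraries that sum lay between 11509 and 14477 FPKM at 1 day, between 2485 and 7611 at 1 week, and between 12889 and 29964 at 8 weeks. The 8-week MI libraries stood apart from each other, as described next, and had been used to choose the genes. They were therefore left out of the main tests, which use limma on log2(FPKM + 1) in the other 15 libraries. A fit to all 18 libraries is given only as an alternative, where it is named.

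The sham ventricles divided the 9 genes into 6 that were near 0 and 3 that were not. Adipoq, the gene of adiponectin (chr16:23146536-23157968), was between 0 and 0.166 FPKM in the 9 sham libraries. Plin1, the droplet coat protein perilipin 1 (chr7:79721164-79732904), reached at most 0.0802 FPKM in them. Cidec (chr6:113424634-113435760) reached at most 0.0981 FPKM and Retn, the gene of resistin (chr8:3655770-3659818), at most 0.155. Car3, a carbonic anhydrase of fat, liver and slow muscle (chr3:14863538-14872381), was at 0.0943 to 0.466 FPKM. Cfd, complement factor D or adipsin, a serine protease secreted by fat cells (chr10:79890853-79892655), was at 0.0741 to 0.514 FPKM.

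The other 3 genes were present in each sham library. Fabp4 (chr3:10204342-10208616) had 648 to 1144 FPKM, with a coefficient of variation of 20.8% over the 9 libraries. Plin4, a perilipin of small droplets (chr17:56100587-56109948), had 19.4 to 33.8 FPKM and a coefficient of variation of 17.2%. Pparg (chr6:115360879-115490404) had 4.05 to 7.0 FPKM and a coefficient of variation of 19.7%. In the sham ventricle the adipocyte label therefore did not hold for Fabp4, Plin4 and Pparg, which had a level there while Adipoq was at or near 0. The positions are those of GRCm38.p6.

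**Figure D1:**
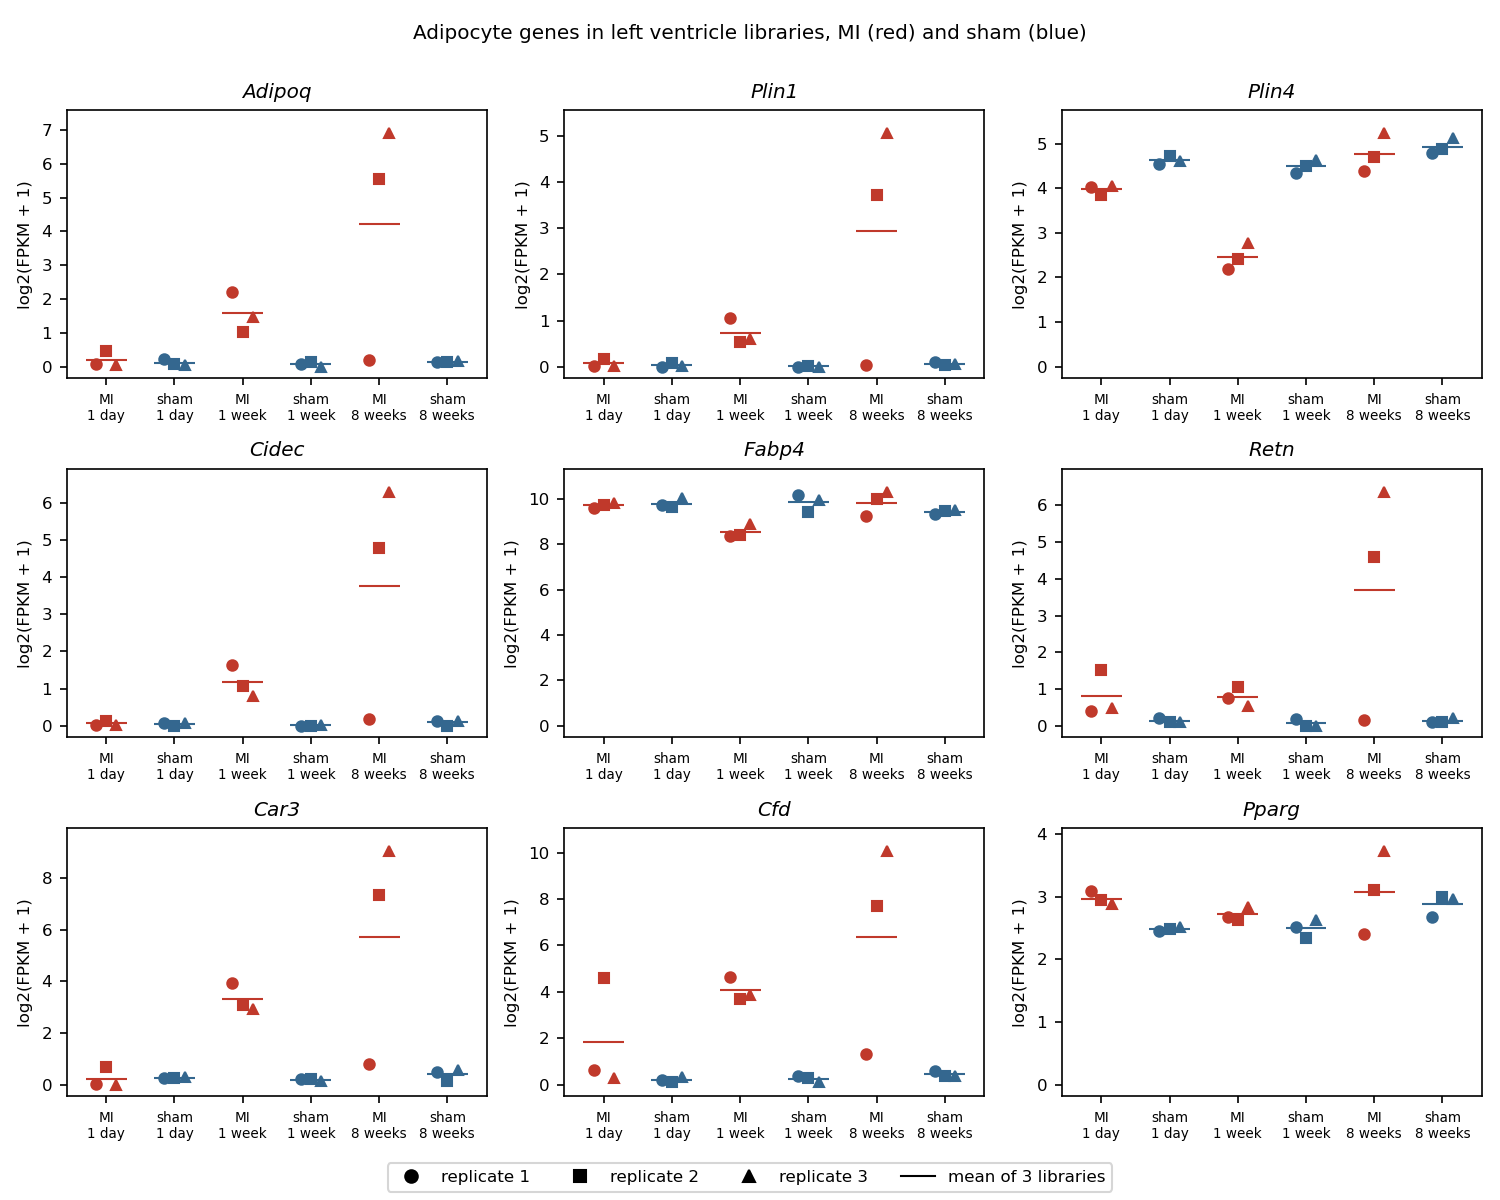
Each panel plots log2(FPKM + 1) of a gene in the 18 left ventricle libraries, MI in red and sham in blue, with symbols for the replicate and a line at the mean of 3 libraries. Adipoq, Plin1, Cidec, Retn, Car3 and Cfd were high in replicates 2 and 3 of MI at 8 weeks and low in replicate 1, while Plin4, Fabp4 and Pparg had a level in every library.

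At 8 weeks the infarcted ventricles held adipocyte transcripts in 2 libraries and next to none in the third. Adipoq had 0.157, 46.1 and 119 FPKM in the MI libraries, against 0.103, 0.0911 and 0.114 FPKM in the sham libraries. Plin1 had 0.0195, 12.2 and 32.3 FPKM in the MI libraries and 0.0802, 0.0189 and 0.0355 in the sham libraries. Cidec had 0.129, 26.6 and 76.8 FPKM in the MI libraries and 0.0886, 0 and 0.0981 in the sham libraries. For these droplet and hormone genes replicate 3 was the highest, replicate 2 came next and replicate 1 lay at or near the sham level.

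The secreted protein genes and Car3 had the same order. Retn had 0.118, 23.0 and 81.1 FPKM in the MI libraries, against 0.0697, 0.0788 and 0.155 in the sham libraries. Car3 had 0.731, 159 and 523 FPKM in the MI libraries, against 0.421, 0.0943 and 0.466 in the sham libraries. Cfd had 1.47, 206 and 1064 FPKM in the MI libraries, against 0.514, 0.303 and 0.284 in the sham libraries. Cfd was thus the most abundant of these 6 genes in replicates 2 and 3, on a scale that takes gene length into account.

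The 3 genes with a level in sham ventricles spread less. Fabp4 had 606, 1014 and 1259 FPKM in the MI libraries and 648, 712 and 739 FPKM in the sham libraries. Plin4 had 19.8, 25.1 and 36.6 FPKM in the MI libraries and 26.8, 28.6 and 33.8 in the sham libraries. Pparg had 4.28, 7.64 and 12.2 FPKM in the MI libraries and 5.37, 7.0 and 6.78 in the sham libraries. For each of them MI replicate 1 was below all 3 sham libraries and MI replicate 3 was above all 3.

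Relative to the sham mean of log2(FPKM + 1), the median difference over the 9 genes was 0.02 in MI replicate 1, 4.45 in replicate 2 and 6.20 in replicate 3. The medians over 12858 genes were 0.29, 0.53 and 0.76 in the same libraries. The median over the 9 genes of the mean difference was 3.56, with an SD of 3.18 between the medians of the 3 libraries. It was 5.34 without MI replicate 1, 3.12 without MI replicate 2 and 2.24 without MI replicate 3. These values chose the genes and are a description, with no test.

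Replicate 3 exceeded replicate 2 by a similar factor for most of the genes. The ratio of their FPKM was 2.58 for Adipoq, 2.66 for Plin1, 2.89 for Cidec, 3.28 for Car3, 3.52 for Retn and 5.17 for Cfd. It was 1.60 for Pparg, 1.46 for Plin4 and 1.24 for Fabp4, the genes that replicate 1 also had. After the level of replicate 1 was subtracted from both, the ratio became 2.36 for Pparg, 3.19 for Plin4 and 1.60 for Fabp4, and 2.58 for Adipoq. On this measure Plin4 lay among the other genes, while Pparg was just below the lowest of them, Adipoq, and Fabp4 was further below. The subtraction takes the level of replicate 1 as common to the 3 MI libraries, which was not tested. Their cardiomyocyte sums were not alike, at 29964, 20867 and 12889 FPKM in replicates 1, 2 and 3.

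Markers of other cells differed between the same 3 MI libraries. Cardiomyocyte genes summed to 29964, 20867 and 12889 FPKM in MI replicates 1, 2 and 3, against 36712 to 37989 in the sham libraries, the reverse of the order of Adipoq. The 6 measured mesothelial genes, which mark the lining of the heart and chest cavity, summed to 13.3, 26.3 and 200.4 FPKM, against 0.924 to 1.35 in the sham libraries, where up to 4 of the 6 were at 0. The 10 macrophage genes summed to 797, 1208 and 2195 FPKM, against 157 to 229 in the sham libraries. The 8 lymphocyte genes summed to 7.97, 12.5 and 30.7 FPKM, against 1.16 to 1.88 in the sham libraries. The part of these cells in the adipocyte gene levels was not tested.

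Some genes of skeletal muscle, a tissue that also makes Car3, were also higher in these libraries, in another order. The 12 genes summed to 31.7, 14.2 and 337 FPKM in MI replicates 1, 2 and 3, against 13.3 to 14.8 in the sham libraries. Mylpf, a fast skeletal myosin light chain, had 3.36, 1.53 and 62.4 FPKM in the MI libraries and 0.384, 0.452 and 0.425 in the sham libraries. In MI replicate 2 the sum was within the sham range, with Tnnt1, the slow troponin T, at 7.44 FPKM against 10.7 to 12.1 in the sham libraries. Tnnt3, the fast troponin T, was at 1.06 FPKM in that library, against 0.108 to 0.450 in the sham libraries, and the fast genes Mylpf and Tnnc2 were also above their sham ranges there. Mylpf, Tnnc2 and Tnnt3, which are fast genes, were higher in replicate 1 than in replicate 2. Tnnt1, the slow gene, had 9.19, 7.44 and 6.63 FPKM in MI replicates 1, 2 and 3. The part of skeletal muscle in the level of Car3 was not tested. Of brown fat genes, Cidea, a droplet protein, had 17.1, 11.8 and 8.82 FPKM in the MI libraries and 13.1, 11.6 and 14.4 in the sham libraries, and was lowest in replicate 3. Dio2, the deiodinase that activates thyroid hormone, had the largest difference of the brown fat list, with 2.54, 3.91 and 2.73 FPKM in the MI libraries, against 0.104, 0.173 and 0.178 in the sham libraries. The next in size, Ppargc1a, Cox7a1 and Kcnk3, went the other way and were below all sham libraries in each MI library. Ppargc1a had 6.80, 5.75 and 4.06 FPKM in the MI libraries, against 16.6, 17.6 and 17.4 in the sham libraries. The median log2 difference of the 8 measured brown fat genes was -0.44. Ucp1, the defining gene of brown fat, was not analysed here.

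**Figure D2:**
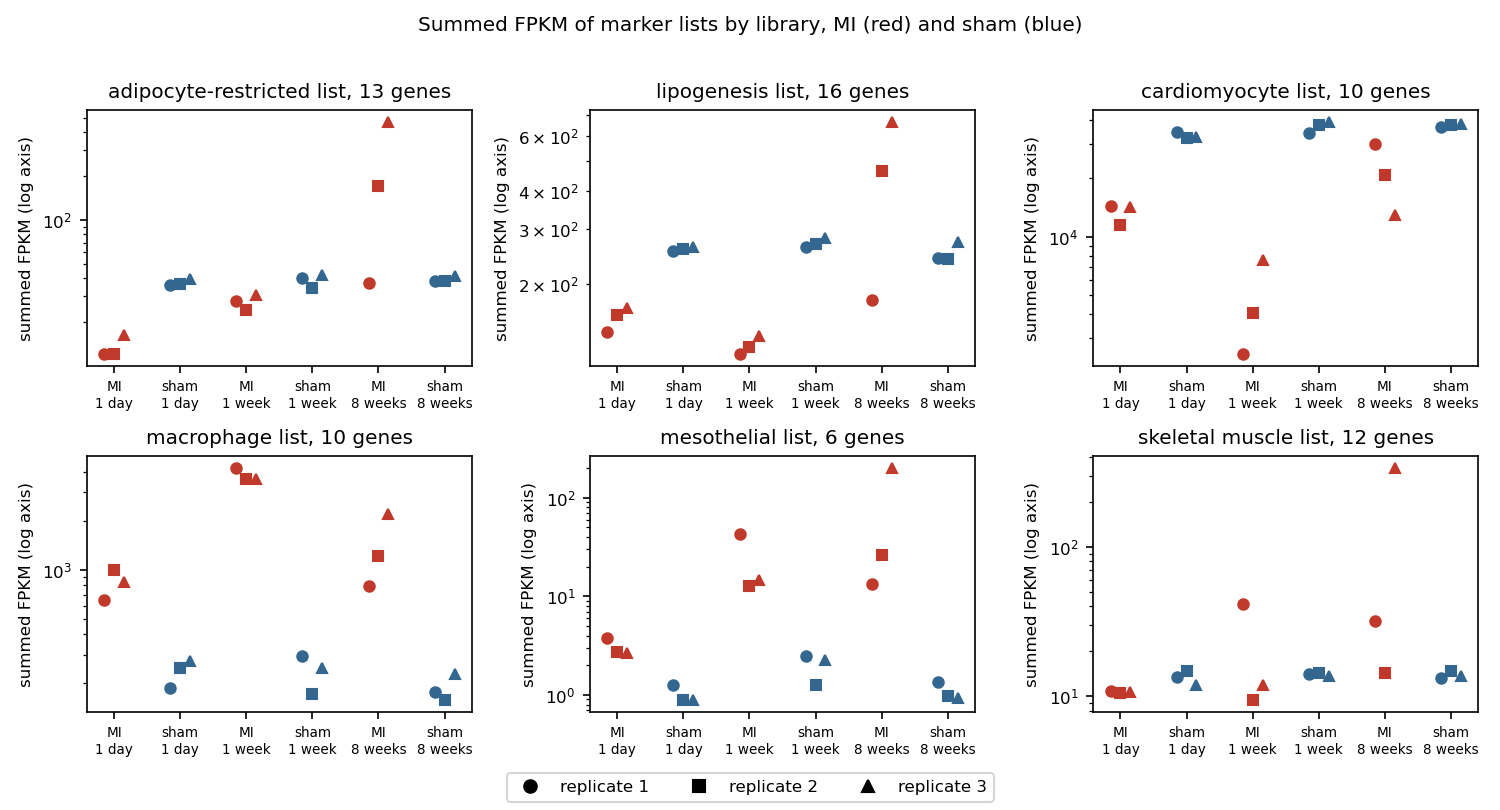
Summed FPKM of 6 marker lists in each library on a log axis, MI in red and sham in blue, with symbols for the replicate. At 8 weeks the adipocyte-restricted sum was 37.0, 169 and 467 FPKM in MI replicates 1, 2 and 3, against 38.3 to 41.7 in sham libraries. Cyp2e1 alone had 245 FPKM in replicate 3. The mesothelial sum had the same order, and the cardiomyocyte sum had the reverse order. At 1 week the adipocyte-restricted sum was lower in MI libraries, at 24.1 to 30.8 FPKM against 34.1 to 41.9 in sham libraries. It was also lower at 1 day, at 12.1 to 16.5 FPKM against 36.1 to 39.4.

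At 1 week the same genes were present at a far lower level in all 3 MI libraries. Adipoq had 3.67, 1.05 and 1.79 FPKM in the MI libraries, against 0.0529, 0.106 and 0 in the sham libraries. Car3 had 14.1, 7.37 and 6.71 FPKM in the MI libraries and 0.164, 0.165 and 0.101 in the sham libraries. Cfd had 23.7, 11.9 and 13.7 FPKM in the MI libraries and 0.301, 0.226 and 0.0741 in the sham libraries. MI and sham libraries did not overlap for any of the 3, and MI replicate 1 was the highest for each.

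Adipoq, Car3 and Cfd passed the filter of 1 FPKM in 3 of the 15 libraries only with the MI libraries of this stage, so that a filtered test on them is drawn from genes picked for being high there. The log2 differences of FPKM + 1, MI minus sham, were 1.51 ± 0.20 for Adipoq, 3.12 ± 0.22 for Car3 and 3.80 ± 0.75 for Cfd, with the SE of the filtered fit. In the limma fit with no filter on low values, the adjusted p at 1 week was 1.14e-05 for Adipoq, 1.12e-08 for Car3 and 0.000442 for Cfd. With the 8-week MI libraries added to the fit, the limma adjusted p was 0.186 for Adipoq, 0.0323 for Car3 and 0.0263 for Cfd. The 3 differences kept their direction in each alternative run that tested them. Adipoq and Car3 were not tested at a mean of at least 5 FPKM. They also failed the filter when an MI library of this stage was left out, unless the same genes were kept.

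Plin1, Cidec and Retn did not pass the filter. Plin1 had 1.09, 0.443 and 0.512 FPKM in the MI libraries, against 0, 0.0165 and 0 in the sham libraries. Cidec had 2.07, 1.10 and 0.750 FPKM in the MI libraries, against 0, 0 and 0.0179 in the sham libraries. Retn had 0.671, 1.09 and 0.450 FPKM in the MI libraries, against 0.142, 0 and 0 in the sham libraries. The MI libraries were all above the sham libraries for each of the 3, and without the filter limma gave log2 differences of 0.72, 1.16 and 0.72, with adjusted p of 1.08e-05 for Plin1, 2.35e-06 for Cidec and 0.0084 for Retn.

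Fabp4 and Plin4 went the other way at 1 week. Fabp4 had 328, 335 and 476 FPKM in the MI libraries, against 1144, 686 and 1002 in the sham libraries. Its log2 difference in limma was -1.30 ± 0.18 (SE), adjusted p = 6.82e-06. Plin4 had 3.59, 4.29 and 5.81 FPKM in the MI libraries, against 19.4, 21.6 and 23.7 in the sham libraries. Its log2 difference was -2.04 ± 0.13 (SE), with a limma adjusted p = 4.28e-10. Neither gene overlapped between MI and sham libraries, and both fell in libraries where Adipoq rose.

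Pparg had 5.42, 5.20 and 6.12 FPKM in the MI libraries, against 4.75, 4.05 and 5.18 in the sham libraries. The difference of 0.22 ± 0.10 (SE) passed in limma with an adjusted p = 0.0412, but its sign depended on the scaling: it was -0.56 with median-ratio factors and -0.66 with quantile normalization, both past the threshold. The median over all tested genes was 0.80 at this stage, and relative to it Pparg was at -0.58, Adipoq at 0.71, Car3 at 2.32, Cfd at 3.00, Fabp4 at -2.10 and Plin4 at -2.83. The call on Pparg was lost with all 18 libraries in 1 fit, with this stage fitted on its own libraries, without MI replicate 1 or 3 or sham replicate 1 or 2 of this stage, or without sham replicate 2 of 1 day.

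These counts stand against a broad background. Of the 6 genes that passed the filter, 4 were called higher, 3 of them genes that needed these MI libraries to pass, and 2 lower at 1 week, while 74.5% of 12698 genes tested were called higher and 17.3% lower. Of all 9 genes, 7 were higher in every MI library than in every sham library and 2 were lower in every one, while of all 16415 genes 69.7% were higher in this way and 16% lower. The count of rises is therefore near the background, and the values above describe their size.

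Other cell markers moved at 1 week as well. The mesothelial sum was 43.0, 12.8 and 14.8 FPKM in MI replicates 1, 2 and 3, against 1.25 to 2.47 in the sham libraries, and replicate 1 was also highest in Adipoq, Plin1, Cidec, Car3 and Cfd. The skeletal muscle sum was 41.5, 9.40 and 11.9 FPKM in the MI libraries, against 13.7 to 14.3 in the sham libraries. The low sums of replicates 2 and 3 came with Tnnt1 at 2.36 and 2.45 FPKM, against 10.8 to 11.7 in the sham libraries, while Tnnt3 was at 7.14, 2.27 and 3.42 FPKM in the MI libraries, against 0.124 to 0.192 in the sham libraries. The macrophage sum was 3607 to 4229 FPKM in MI libraries and 170.5 to 295 in sham libraries, and the endothelial sum 338 to 349 FPKM in MI libraries and 229 to 303 in sham libraries. Fabp4, which both of those cell types can make, was lower in the MI libraries. The part of these cells in the adipocyte gene levels was not tested.

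**Figure D3:**
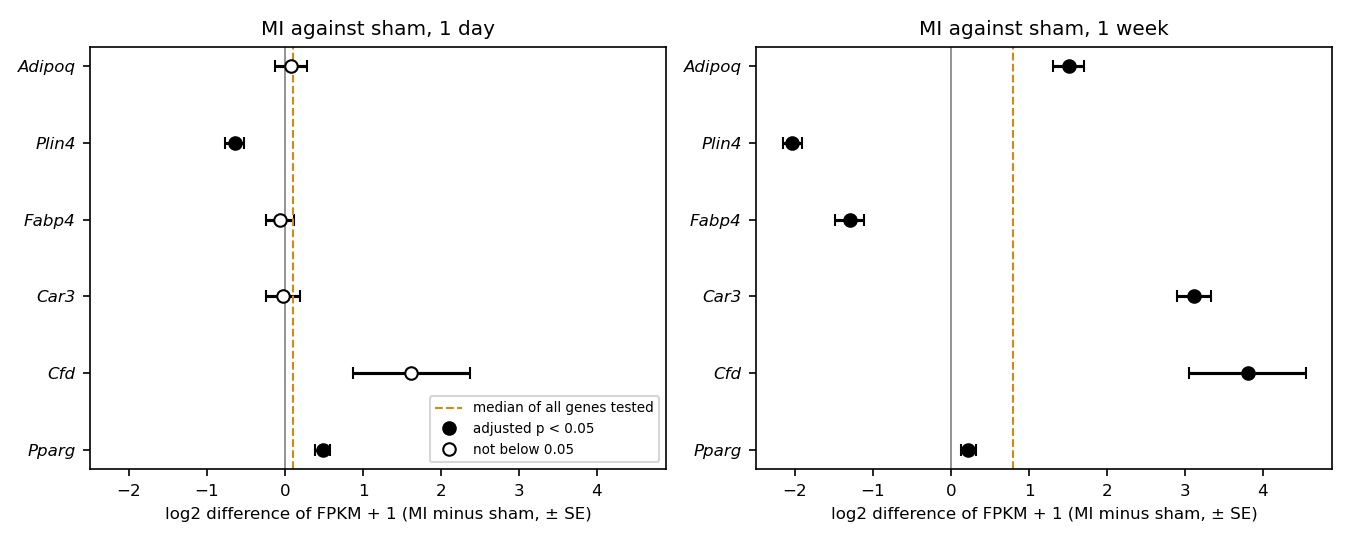
Differences of log2(FPKM + 1), MI minus sham, with standard errors from limma, for the 6 genes that passed the filter, at 1 day and 1 week. Filled points had an adjusted p below 0.05 in the filtered fit, which Adipoq, Car3 and Cfd entered only with the MI libraries of 1 week. The dashed line is the median of all genes tested, 0.10 at 1 day and 0.80 at 1 week. Adipoq, Car3 and Cfd lie right of it at 1 week and Plin4 and Fabp4 far left.

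In the 5 libraries with Adipoq of at least 1 FPKM, the 3 MI libraries of 1 week and MI replicates 2 and 3 of 8 weeks, the genes were compared with Adipoq itself. Plin1 kept the narrowest ratio, between 0.264 and 0.420 FPKM per FPKM of Adipoq, although Adipoq ranged between 1.05 and 119 FPKM. Car3 had ratios of 3.45 to 6.99, Cfd of 4.46 to 11.3, Cidec of 0.418 to 1.04 and Retn of 0.183 to 1.04. The highest ratio was 1.60 times the lowest for Plin1, 2.02 times for Car3, 2.50 for Cidec, 2.52 for Cfd and 5.66 for Retn. For the genes with a level in sham ventricles the spread was wider, 13.2 times for Plin4, 30.0 for Fabp4 and 48.0 for Pparg. The ratios share their denominator and are given as a description.

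**Figure D4:**
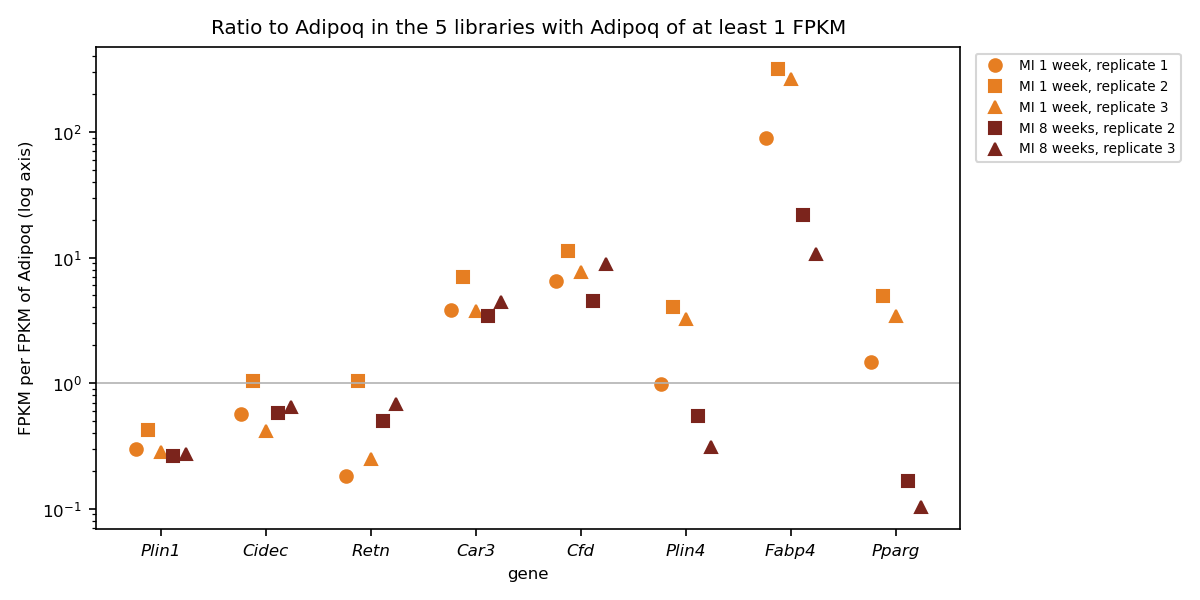
FPKM of each gene per FPKM of Adipoq, on a log axis, in the 5 libraries with Adipoq of at least 1 FPKM; orange marks MI at 1 week and dark red MI at 8 weeks. Plin1 stayed between 0.264 and 0.420 in all 5, whereas Fabp4 ran between 10.6 and 318.

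Correlations of log2(FPKM + 1) over the 18 libraries describe the same division. Pearson's r with Adipoq was 0.993 for Plin1, 0.996 for Cidec, 0.98 for Car3, 0.96 for Retn and 0.93 for Cfd. It was 0.71 for Pparg, 0.17 for Fabp4 and 0.06 for Plin4. Over the 15 libraries without MI at 8 weeks it was 0.989 for Plin1, 0.967 for Car3, 0.964 for Cidec, 0.844 for Cfd and 0.51 for Retn, and 0.06 for Pparg, -0.85 for Fabp4 and -0.89 for Plin4.

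The promoters of genes that moved together are shown here beside that of Pparg, the receptor that acts on such genes in adipocytes. RefSeq windows of 250 bases before a gene's start, on GRCm38.p6, were matched for 7 of the 9 genes, 10 windows in all; Fabp4 and Car3 had none. Each sequence is written 5′ to 3′ on the strand of its gene, and capitals mark matches to the C/EBP motif TTGCNNAA on either strand. None of the 5 windows printed overlaps an annotated exon. They are Adipoq at chr16:23146286-23146535 (plus strand), Cidec at its inner start at chr6:113434765-113435014 (minus strand), Retn at chr8:3655520-3655769 (plus strand), Cfd at chr10:79890603-79890852 (plus strand) and Pparg at its inner start at chr6:115421816-115422065 (plus strand).
Adipoq: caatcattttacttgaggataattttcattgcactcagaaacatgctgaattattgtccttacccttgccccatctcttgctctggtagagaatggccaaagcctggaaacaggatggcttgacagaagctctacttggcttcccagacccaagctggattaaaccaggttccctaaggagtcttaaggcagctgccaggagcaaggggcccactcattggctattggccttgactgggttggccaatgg
Cidec: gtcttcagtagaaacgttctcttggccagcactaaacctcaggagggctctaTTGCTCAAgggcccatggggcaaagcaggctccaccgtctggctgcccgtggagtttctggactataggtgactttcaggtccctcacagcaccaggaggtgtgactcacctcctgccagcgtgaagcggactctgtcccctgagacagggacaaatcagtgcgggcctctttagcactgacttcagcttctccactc
Retn: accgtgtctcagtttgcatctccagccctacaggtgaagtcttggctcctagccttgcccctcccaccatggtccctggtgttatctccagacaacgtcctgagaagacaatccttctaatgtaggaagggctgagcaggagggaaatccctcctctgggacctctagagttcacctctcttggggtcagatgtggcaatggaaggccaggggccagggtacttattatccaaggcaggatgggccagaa
Cfd: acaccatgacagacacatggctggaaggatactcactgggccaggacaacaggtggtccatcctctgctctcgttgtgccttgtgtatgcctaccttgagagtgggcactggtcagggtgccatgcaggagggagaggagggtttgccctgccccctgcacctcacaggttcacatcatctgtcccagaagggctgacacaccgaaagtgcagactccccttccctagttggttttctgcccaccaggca
Pparg: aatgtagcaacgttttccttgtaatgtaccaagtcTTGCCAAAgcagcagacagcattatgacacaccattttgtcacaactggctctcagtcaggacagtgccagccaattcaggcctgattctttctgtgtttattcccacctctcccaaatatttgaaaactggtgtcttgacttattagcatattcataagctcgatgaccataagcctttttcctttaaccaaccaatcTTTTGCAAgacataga

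TTGCNNAA was found in 3 of the 10 windows, in Plin1, in the inner window of Cidec and in the inner window of Pparg, and in 9.56% of 32851 windows of the same length. Pparg held it at bases -215 to -208 and, on the other strand, at -16 to -9, counted back from the start. Plin1 held it at -187 to -180 and -58 to -51, and Cidec at -198 to -191. The windows of Adipoq, Retn and Cfd printed above, which rose with Plin1 and Cidec, held none. The PPAR direct repeat, AGGTCA followed by 1 base and AGGTCA, was in 0 of the 10 windows and in 0.0335% of all windows, and its looser form with AGGNCA was in 0 and in 0.338%. A single AGGTCA was in 2 windows, both of Pparg, against 14.0% of all windows, and TATAAA in 1, of Pparg, against 12.4%. The motifs were searched on both strands, and a match to the stricter repeat is also a match to the looser form and to the single AGGTCA.

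At 1 day the adipocyte genes were near 0 in most MI libraries, and a single library differed. Adipoq had 0.0536, 0.371 and 0.0241 FPKM in the MI libraries, against 0.166, 0.0521 and 0.0262 in the sham libraries. Car3 had 0.0208, 0.599 and 0 FPKM in the MI libraries, against 0.194, 0.182 and 0.224 in the sham libraries. Cfd had 0.572, 23.0 and 0.206 FPKM in the MI libraries, against 0.158, 0.0741 and 0.260 in the sham libraries. The 3 genes shared their highest library, MI replicate 2, and MI and sham overlapped for each of them.

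Plin1 and Cidec were also highest in MI replicate 2 of 1 day, with 0.124 and 0.0982 FPKM, against no more than 0.0572 in any sham library of 1 day. In that library Cfd was 62.1 times Adipoq, above the 4.46 to 11.3 times of the 5 libraries described above. Those 5 had Adipoq of at least 1 FPKM, while here it was 0.371 FPKM, which makes the ratio less certain. In MI replicates 1 and 3 of 1 day, where Adipoq was lower still, Cfd was 10.7 and 8.54 times Adipoq. The limma values that follow are of the filtered fit, which Adipoq, Car3 and Cfd entered only with the MI libraries of 1 week. The difference of Cfd in limma was 1.62 ± 0.75 (SE), adjusted p = 0.0583, and 0.25 without MI replicate 2 of 1 day. Adipoq had a difference of 0.08, with a limma adjusted p = 0.736, and Car3 one of -0.03, with an adjusted p = 0.914. Adipoq and Car3 were thus below the level that the filter counts in every library of this stage.

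Retn, which mouse adipocytes secrete, was above the sham libraries in each MI library at 1 day. It had 0.317, 1.86 and 0.390 FPKM in the MI libraries, against 0.149, 0.0701 and 0.0704 in the sham libraries, and without the filter limma gave 0.66, adjusted p = 0.0162. Its relative Retnlg, a resistin-like protein of neutrophils, had 825, 852 and 489 FPKM in the MI libraries and 0.420, 0.723 and 1.25 in the sham libraries. The longest stretch of bases that Retn and Retnlg transcripts share is 10, and 12 for Retn and Retnla. The 8 neutrophil genes summed to 5424 to 9348 FPKM in MI libraries, highest in replicate 2, and to 18.5 to 38.5 in sham libraries. Their part in the values of Retn was not tested.

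Pparg and Plin4 were the genes called at 1 day. Pparg had 7.48, 6.72 and 6.35 FPKM in the MI libraries, against 4.48, 4.60 and 4.69 in the sham libraries, a difference of 0.49 ± 0.10 (SE) with a limma adjusted p = 0.000264. The difference was 0.22 with quantile normalization and then missed the threshold, at an adjusted p = 0.0634. Plin4 had 15.3, 13.5 and 15.6 FPKM in the MI libraries, against 22.3, 25.4 and 23.4 in the sham libraries, and its difference was -0.64 ± 0.13 (SE), adjusted p = 0.000229 in limma. Neither gene overlapped between the groups. Fabp4 had 776, 866 and 918 FPKM in the MI libraries and 846, 799.6 and 1044 in the sham libraries, with a difference of -0.06 ± 0.18 (SE) and a limma adjusted p = 0.758.

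The 2 genes called at 1 day, of 6 tested, were 1 higher and 1 lower, while 45.8% of genes tested were called higher and 34.7% lower. Of all 9 genes, 2 (Retn and Pparg) were higher in every MI library than in every sham library and 1 (Plin4) was lower, while 40.9% of all genes were higher in this way and 33.1% lower. All of these shares of the adipocyte genes were under the background.

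The effect of MI at 1 week was compared with that at 1 day. For Adipoq and Car3, which passed the filter only through the MI libraries of 1 week, the 1 week effect minus the 1 day effect was 1.43 ± 0.29 and 3.14 ± 0.31, with the SE of the filtered fit. In the limma fit with no filter the adjusted p was 0.000662 for Adipoq and 9.78e-07 for Car3. With all 18 libraries in 1 fit both missed the threshold, with limma adjusted p of 0.401 for Adipoq and 0.133 for Car3. In the filtered fit the difference was -1.39 ± 0.18 for Plin4, adjusted p = 4.06e-06, and -1.24 ± 0.26 for Fabp4, adjusted p = 0.000504. Cfd also passed the filter only with the MI libraries of 1 week. In the filtered fit it missed the threshold with 2.18 ± 1.06 and a limma adjusted p = 0.0705. Without MI replicate 2 of 1 day its difference was 3.56. Pparg had -0.27 ± 0.14, with a limma adjusted p = 0.0839. With 2 higher, both of them through that filter, and 2 lower of 6, the genes stood beside 65.9% of genes tested that were called higher and 13.9% lower.

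Sham ventricles at 8 weeks and 1 day were compared with sham ventricles at 1 week, which also served as the control of MI at 1 week. At 8 weeks Pparg had 5.37, 7.0 and 6.78 FPKM, against 4.75, 4.05 and 5.18 at 1 week, a difference of 0.38 ± 0.10 (SE), adjusted p = 0.0286 in limma. Plin4 had 26.8, 28.6 and 33.8 FPKM at 8 weeks, against 19.4, 21.6 and 23.7 at 1 week, a difference of 0.44 ± 0.13 (SE) with a limma adjusted p = 0.0470. In this comparison 2 of the 6 genes were called higher, while 1.63% of genes tested were. Both calls were fragile: Plin4 lost its call without any single sham library of 1 week or 8 weeks, and Pparg without sham replicate 1 or 2 of 1 week or sham replicate 2 or 3 of 8 weeks. Between sham at 1 day and sham at 1 week, limma called none of the 6 genes, and none had an unadjusted p below 0.05, while 7.67% of genes tested were called in either direction.

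Other genes of fat metabolism, in lists that share no gene with the 9, followed their own course. Of 13 tested genes of lipid droplets and lipolysis, 2 were called higher and 9 lower at 1 day, and 4 higher and 8 lower at 1 week, with medians of -0.42 and -0.53 against 0.10 and 0.80 over all genes. Over all genes tested, 45.8% were called higher and 34.7% lower at 1 day, and 74.5% higher and 17.3% lower at 1 week. Plin2, the perilipin of most cell types, had 130, 238 and 199 FPKM in MI libraries at 1 day, against 23.0, 28.6 and 23.2 in sham libraries, a log2 difference of 2.84 and a limma adjusted p = 1.35e-09. Plin5, the perilipin of oxidative muscle, had 0.825, 1.48 and 4.09 FPKM in MI libraries at 1 week, against 41.1, 41.4 and 48.4 in sham libraries, a difference of -3.97 with a limma adjusted p = 9.14e-10. Plin3, a perilipin of most tissues, had 13.03 to 15.4 FPKM in MI libraries at 1 day, against 41.5, 41.1 and 40.5 in sham libraries, a difference of -1.44 with a limma adjusted p = 4.75e-10. At 1 week it had 25.3, 25.0 and 28.9 FPKM in MI libraries, against 39.8, 35.3 and 40.0 in sham libraries, a difference of -0.53 with a limma adjusted p = 1.63e-05. Among perilipins, Plin3, Plin4 and Plin5 fell at both stages and Plin2 rose at both.

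Genes of fatty acid synthesis and storage had more falls than rises at 1 day and 1 week, and some were high together with Adipoq at 8 weeks. Of 15 tested, 6 were called higher and 8 lower at each of 1 day and 1 week, with medians of -0.49 and -0.63. The shares over all genes tested were 45.8% higher and 34.7% lower at 1 day, and 74.5% higher and 17.3% lower at 1 week. Dgat2, which makes triglyceride, had 4.62, 6.65 and 14.7 FPKM in MI libraries at 1 week, against 95.1, 105 and 102 in sham libraries, a difference of -3.53 and a limma adjusted p = 1.79e-09. At 8 weeks Scd1, the desaturase that makes oleic acid, had 3.86, 188 and 253 FPKM in the MI libraries and 1.96, 2.30 and 1.93 in the sham libraries. Fasn, fatty acid synthase, had 2.93, 23.0 and 43.4 FPKM in the MI libraries, against 1.83, 1.94 and 2.04 in the sham libraries. Both were far higher in MI replicates 2 and 3 than in replicate 1, as Adipoq was.

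Fatty acid uptake genes did not share that gain. Of 10 tested, 2 were called higher and 6 lower at 1 day, and 3 higher and 7 lower at 1 week. These stood beside 45.8% of all genes tested called higher and 34.7% lower at 1 day, and 74.5% higher and 17.3% lower at 1 week. Lpl, the lipase that frees fatty acids in the capillary, had 77.5, 111 and 173 FPKM in MI libraries at 1 week, against 821, 911 and 906 in sham libraries, and a limma adjusted p = 1.16e-09. At 8 weeks Lpl had 517, 409.6 and 308 FPKM in the MI libraries, against 886, 923 and 915 in the sham libraries, lowest in the library with the most Adipoq. Angptl4, which inhibits Lpl, had 71.0, 98.9 and 71.6 FPKM in MI libraries at 1 day, against 2.19, 4.98 and 1.84 in sham libraries, with a limma adjusted p = 1.58e-07.

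Of 11 adipogenic transcription factors and their partners, 4 were called higher and 6 lower at 1 day, and 8 higher and 3 lower at 1 week, beside 45.8% and 34.7% of all genes tested at 1 day and 74.5% and 17.3% at 1 week. The 8 of 11 is near that background. Cebpa, which acts with Pparg in fat cells and is also a factor of myeloid cells, had 32.6, 25.7 and 25.7 FPKM in MI libraries at 1 week, against 2.02, 1.24 and 1.47 in sham libraries, with a limma adjusted p = 7.15e-11. At 8 weeks Cebpa had 5.45, 10.9 and 24.2 FPKM in the MI libraries, against 1.37, 0.836 and 1.34 in the sham libraries. Rxrg, a partner of PPARs in muscle, had 3.02, 2.11 and 3.14 FPKM in MI libraries at 1 day, against 28.5, 25.2 and 29.2 in sham libraries, a limma adjusted p = 3.98e-09. Cebpa followed the order of Adipoq between the 8-week MI libraries, but it was higher still at 1 week, where Adipoq was at 1.05 to 3.67 FPKM.

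Other secreted proteins of fat had 5 of 7 tested genes called higher at 1 day, and 4 higher and 3 lower at 1 week, by limma, beside 45.8% of all genes called higher at 1 day, and 74.5% higher and 17.3% lower at 1 week. Hp, haptoglobin, which neutrophils and fat cells both make, had 82.6, 134 and 92.6 FPKM in MI libraries at 1 day, against 0.550, 1.20 and 0.708 in sham libraries, with a limma adjusted p = 1.06e-11. At 8 weeks Hp had 11.5, 86.3 and 279.9 FPKM in the MI libraries, against 0.605, 0.219 and 0.927 in the sham libraries. Rbp4, the retinol carrier of plasma, had 2.07, 11.4 and 16.6 FPKM in the MI libraries of 8 weeks, against 0, 0.0429 and 0.0404 in the sham libraries. Retnla had 8.19, 24.1 and 81.7 FPKM in the MI libraries of 8 weeks, against 2.54, 3.62 and 2.52 in the sham libraries, and in replicates 2 and 3 these levels were close to the 23.0 and 81.1 FPKM of Retn. The 2 genes parted at 1 week, where Retn was higher in MI libraries. Retnla then had 0.858, 0.242 and 0.518 FPKM in MI libraries, against 5.67, 4.01 and 3.71 in sham libraries. Its difference was -1.83, with a limma adjusted p = 1.32e-05.

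Genes that are largely restricted to adipocytes elsewhere were not all so in the ventricle. Of 13 measured, 7 passed the filter, of which 1 was called higher and 4 lower at 1 day and 4 higher and 3 lower at 1 week. Among all genes tested, 45.8% were called higher and 34.7% lower at 1 day, and 74.5% higher and 17.3% lower at 1 week. Aqp7, the glycerol channel, had 0.437, 1.08 and 1.91 FPKM in MI libraries at 1 week, against 8.49, 6.76 and 8.74 in sham libraries, a difference of -2.12 and a limma adjusted p = 8.71e-08. Cyp2e1, a cytochrome P450 of liver and fat, had 5.78, 2.97 and 3.83 FPKM in MI libraries at 1 week, against 0.0305, 0.0616 and 0.0205 in sham libraries. It passed the filter only through those MI libraries, and its test is not given. At 8 weeks Cyp2e1 had 0.261, 47.6 and 245 FPKM in the MI libraries and 0.258, 0.268 and 0.144 in the sham libraries. Lgals12, a galectin of fat droplets, had 0.0127, 2.46 and 8.11 FPKM in the MI libraries of 8 weeks, against 0.0104, 0.0194 and 0.0154 in the sham libraries. At 8 weeks Aqp7 had 2.30, 4.06 and 3.51 FPKM in the MI libraries, against 5.72, 6.68 and 6.37 in the sham libraries. Between the 8-week MI libraries Cyp2e1 and Lgals12 had the order of Adipoq, and Aqp7 was below all sham libraries in each of them.

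The genes whose pattern was most like the mean of the 9 were sought among 11856 other genes with a mean of at least 1 FPKM, by Pearson's r of log2(FPKM + 1) over the 18 libraries. They were Pck1 (r = 0.99), Scd1 (0.98), Serpina3c (0.98), Cyp2e1 (0.98), Sfrp4 (0.96), Cdo1 (0.96), Nnat (0.95), Apoc1 (0.95), Fasn (0.95) and Rbp4 (0.94). Pck1, which makes the glycerol backbone of triglyceride in fat cells, had 0.0403, 11.6 and 33.2 FPKM in the MI libraries of 8 weeks and at most 0.0486 FPKM in the sham libraries. Sfrp4, a secreted Wnt inhibitor, had 1.25, 8.95 and 21.3 FPKM in the MI libraries of 8 weeks and at most 0.0691 FPKM in the sham libraries. Cdo1, which oxidises cysteine, had 1.61, 19.6 and 45.7 FPKM in the MI libraries of 8 weeks and 0.223 to 1.21 in the sham libraries. Over the 15 libraries without MI at 8 weeks, r was between 0.44 for Nnat and 0.90 for Scd1. In the 2 libraries MI replicates 2 and 3 of 8 weeks all 10 were above every sham library and every MI library of 1 week. The mean of the 9 genes was highest in these 2 libraries, at 5.72 and 6.99. That the 10 were high there therefore follows in large part from how they were picked, and is a description only.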

How the data were processed

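RNA of left ventricles of MI and sham mice was sequenced by the authors in 18 mRNA libraries, 3 for each of 6 groups. The authors deposited FPKM for 16415 genes, and the submitters' processing notes name TopHat2 2.0.13, Bowtie2 2.2.3, Cufflinks 2.2.1 and mm10; the options were not given in the sources used here. No counts were used, so depth and counting error are unknown. The table's 18 normalized log2 columns and the authors' fold changes and p-values were not used, nor were the 18 small RNA libraries.

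The 10 genes, the other gene lists and the tests were chosen with earlier results of these data known. Groups came from the sample labels. FPKM was analysed as log2(FPKM + 1), whose differences understate the change of genes under a few FPKM. limma 3.58.1 (R 4.3.3) with an intensity trend was fitted to 15 libraries in 5 groups with 10 residual degrees of freedom, for 12698 genes that reached 1 FPKM in 3 or more of these libraries, leaving out MI at 8 weeks. The p-values were adjusted by Benjamini-Hochberg over all genes tested, with a threshold of 0.05. 6 of the 9 genes passed this filter. The fit was tested on simulated data. Symbols were matched by gene number where older (Adgre1, Cavin1, Trarg1).

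Named genes are the 10 members, up to 4 genes of each list with the largest absolute difference among those with a group mean of at least 1 FPKM, and the 10 genes with the highest correlation with the members. Lgals12, and Cidea at 8 weeks, were named after their values were seen. Promoter windows came from RefSeq on GRCm38.p6, the same build as mm10. Without a stated strand, reads of Plin4, Cidec and Car3 cannot be told from those of the genes that overlap them (Hdgfl2, Gm52871 and Gm41999). Alternatives were a pseudocount of 0.1, no filter, a mean of at least 5 FPKM, quantile normalization, median-ratio factors, each comparison fitted on its own libraries, all 18 libraries, no trend, a replicate block and each library left out. Leaving out a library with the same genes tested was added after seeing the data. Python 3.11.15, pandas 2.3.3 and matplotlib 3.10.9 were used.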

Additional observations from a re-analysis of the deposited data

Results flagged for a closer look

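The effect of MI, on the log2(FPKM + 1) scale, differed between 1 week and 1 day by limma's test of the difference itself for 4 of the 6 genes tested. Of all genes tested, 65.9% were called higher and 13.9% lower in this comparison. The 1 week effect minus the 1 day effect was 1.43 for Adipoq and 3.14 for Car3, both higher at 1 week, and -1.39 for Plin4 and -1.24 for Fabp4, both lower at 1 week. Adipoq and Car3 passed the filter only through the MI libraries of 1 week, where they were high, so that their filtered test is not independent of that choice. With all 18 libraries in 1 fit both missed the threshold, with limma adjusted p of 0.401 for Adipoq and 0.133 for Car3.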

How the results depend on the processing

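The counts of adipocyte genes called moved most where the genes tested or the libraries fitted changed. With all 18 libraries in 1 fit, 1 gene was called at 1 day (2 in the 15-library fit), 2 for the difference between stages (4) and 0 for sham at 8 weeks against 1 week (2). At 1 week the count of 6 became 4 with all 18 libraries, 5 with the stage fitted on its own libraries, 4 at a mean of at least 5 FPKM and 9 of 9 without the filter. A mean of at least 5 FPKM, which tests fewer genes, left 2 for the difference between stages. Quantile normalization left 1 at 1 day. Sham at 8 weeks against 1 week gave 1 with each comparison fitted on its own libraries, 1 without the filter and 1 with a pseudocount of 0.1. The 1 week difference of Pparg turned to -0.56 with median-ratio factors and -0.66 with quantile normalization, and the cause was not tested.

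Leaving out each library in turn gave 2 to 3 genes called at 1 day, 3 to 6 at 1 week, 2 to 5 for the difference between stages, 0 to 2 for sham at 8 weeks and 0 for sham at 1 day, and an 8-week median of 2.24 to 5.34. The 3 at 1 week and the 2 for the difference come from leaving out an MI library of 1 week, after which Adipoq and Car3 fail the filter; with the same genes tested the ranges were 5 to 6 and 4 to 5.

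The replicate block changed no count of adipocyte genes called: 2 at 1 day, 6 at 1 week, 4 for the difference and 2 for sham at 8 weeks. Over all genes it gave 5768 higher and 4371 lower at 1 day, against 5813 and 4408. Same-numbered libraries correlated at -0.351 to 0.301 in their deviations, not each above 0.1. The numbers were therefore not treated as pairs, though a check on 3 libraries per group cannot exclude a pairing.

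Over all genes, scaling moved the split of calls. At 1 week 9459 were higher and 2203 lower, against 5380 and 5287 with quantile normalization and 5575 and 5153 with median-ratio factors. For the difference between stages 8367 were higher and 1766 lower, against 4473 and 4519 with quantile normalization and 3905 and 5237 with median-ratio factors. At 1 day 5813 were higher and 4408 lower, against 4628 and 5761 with quantile normalization. For sham at 8 weeks 207 were higher and 702 lower, against 516 and 476 with quantile normalization, 607 and 628 with median-ratio factors, and 54 and 55 with all 18 libraries. For sham at 1 day 662 were higher and 312 lower, against 527 and 508, 487 and 598, and 123 and 59 in the same order.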
